A study of Mus musculus with 2 samples.

Results

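Cxcl9, Cxcl10 and Cxcl16, chemokines that draw T cells, were followed with Cxcr3 and Cxcr6, their receptors, in immune cells of the inflamed mouse kidney. The 5 genes were taken by name from the 20299 genes of the table, and all 5 were found. The unique molecular identifiers (UMIs, each standing for 1 captured transcript) of each gene were summed over the cells of each cluster named by the authors and each library. The ligands were read in macrophage clusters and the receptors in T, NK and NKT clusters. Both libraries came from kidneys of male C57BL/6 mice aged 8 weeks with nephrotoxic nephritis (NTN), a glomerular injury raised by antibodies. All mice received 200 µg of sheep IgG in adjuvant, and 4 days later sheep nephrotoxic serum was given, at 2 µL per g by the labels and at a larger volume by the methods of the study. One library was WT. The other was Vsir-/-, from mice that lack VISTA, an inhibitory checkpoint protein, through a germline deletion. Each genotype had 1 library, the number of mice behind it is not given in the sources used here, and no difference between genotypes has a replicate check. No test was therefore made, and all intervals are 95% intervals that cover counting error only.

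CXCL9 and CXCL10 are secreted chemokines that interferon gamma induces in macrophages and other cells. Both bind CXCR3, which activated Th1 cells, cytotoxic CD8+ T cells and NK cells carry, so the pair is known for bringing interferon-producing T cells into inflamed tissue. CXCL16 is made as a membrane protein that can hold cells and can also be shed by proteases. It binds CXCR6, a receptor of effector and tissue-resident T cells, NKT cells and innate lymphoid cells.

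Cxcl9 (chr5:92321347-92328079) and Cxcl10 (chr5:92346638-92348889) are neighbours on the minus strand, with 18558 bases between them. Cxcl16 lies at chr11:70453983-70459984 on the minus strand, Cxcr3 at chrX:101731535-101734269 on the minus strand and Cxcr6 at chr9:123806475-123811760 on the plus strand, all in GRCm38 with GENCODE gene models. All 5 are protein coding. Cxcl10 overlaps Art3, Cxcl16 overlaps Zmynd15 and Cxcr6 overlaps Fyco1, each on the opposite strand. Whether the counting used strand is not given in the sources used here, so reads of such a pair may not have been told apart.
The 250 bases before the start of Cxcl9 (chr5:92328080-92328329, minus strand) and of Cxcl10 (chr5:92348890-92349139, minus strand), from RefSeq on GRCm38.p6, are shown because interferon gamma induces both ligands. They are printed 5′ to 3′ with capitals for letters that match GAAANNGAA, the core of the interferon-stimulated response element, or CCAAT.
Cxcl9: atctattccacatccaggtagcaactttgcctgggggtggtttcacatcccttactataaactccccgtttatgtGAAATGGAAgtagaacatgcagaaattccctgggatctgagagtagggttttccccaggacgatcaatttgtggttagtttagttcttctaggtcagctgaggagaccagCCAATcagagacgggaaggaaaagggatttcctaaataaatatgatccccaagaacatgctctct
Cxcl10: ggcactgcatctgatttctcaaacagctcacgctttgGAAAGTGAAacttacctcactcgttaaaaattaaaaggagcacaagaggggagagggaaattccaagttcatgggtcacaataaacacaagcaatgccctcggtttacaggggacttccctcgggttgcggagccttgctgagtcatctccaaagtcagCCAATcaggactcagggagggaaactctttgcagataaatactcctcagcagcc
GAAANNGAA, searched on both strands, began 175 bases before the start of Cxcl9 as GAAATGGAA and 213 bases before that of Cxcl10 as GAAAGTGAA. It was found in 7.16% of 27025 windows of this length. CCAAT began 65 and 54 bases before the respective starts and was found in 34.5% of windows. The longest run of letters shared by both windows was CAGCCAATCAG, which holds the CCAAT. TTCNNNGAA, the interferon gamma activated site, was in neither window and in 7.18% of all windows. The windows of Cxcr3 and Cxcr6 held none of the motifs. No window was found for Cxcl16, so its letters were not searched. A match describes letters and not binding.

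The libraries held 5470 WT and 1844 Vsir-/- cells in 16 clusters, with 32799550 and 18601189 UMIs, and 5 cell barcodes occurred in both. Median UMIs per cell were 4727 and 6673. Vsir, the deleted gene, had 4278 UMIs in WT cells and 8 in Vsir-/- cells. By its label the WT library was a CD45+ sort and the Vsir-/- library took in all kinds of kidney cell, whereas the methods of the study describe a CD45+ sort for both. Ptprc, which encodes CD45, was detected in 94.2% of WT and 73.6% of Vsir-/- cells. Transcripts of kidney tubule markers summed to between 7.03 and 24.5 CPM (UMIs of a gene per 1000000 UMIs of the same cells) in WT macrophage clusters and to between 1368 and 2272 CPM in those of Vsir-/- cells. Genotype, sort and library cannot be told apart in any difference that follows. In macrophages the summed T cell markers went the other way, from 310 to 574 CPM in WT clusters and from 6.47 to 40.0 CPM in Vsir-/- clusters. Whether either moves the values of these 5 genes was not tested.

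Cxcl16 stood highest in the resident R1 macrophages. R1 cells held Cxcl16 at 447.5 CPM (interval 399 to 500.1) in WT and 576 CPM (539 to 614) in Vsir-/-, far above every other cluster of 20 or more cells in either library. Of all Cxcl16 UMIs, 70.5% in WT and 46.0% in Vsir-/- lay in R1 cells. A UMI was seen in 97 of 116 WT R1 cells (83.6%) and 192 of 237 Vsir-/- R1 cells (81.0%). After each cell was thinned to 1000 UMIs the shares were 36.7% and 44.8%. NK cells, a type not known as a source, held a Cxcl16 UMI in 0.337% of WT and 2.99% of Vsir-/- cells, at median depths of 5492 and 5472 UMIs against 4868 and 5921 in R1. The signal was spread over many cells, since the fullest R1 cell held 3.86% of the WT and 2.39% of the Vsir-/- UMIs of the cluster.

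**Figure D1:**
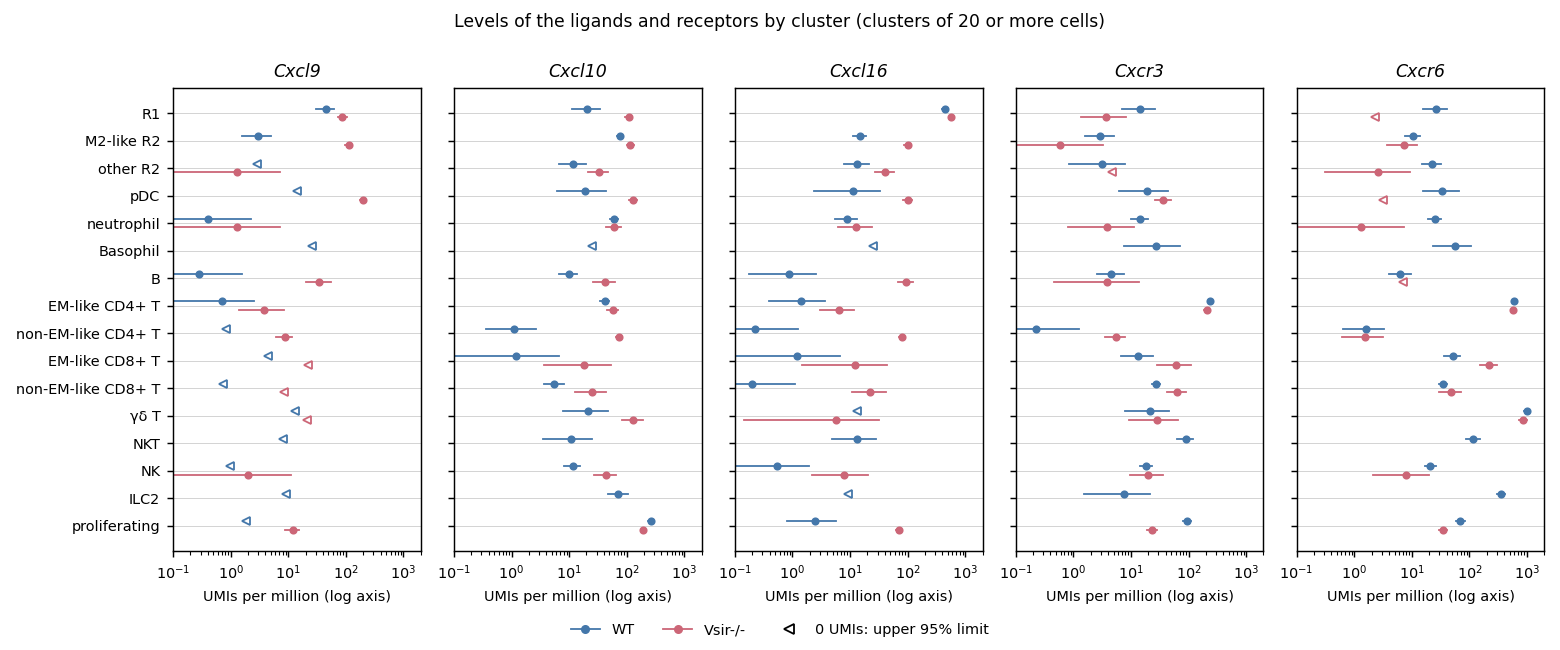
Level of the 5 genes (CPM, log axis) in each cluster of 20 or more cells of the WT and Vsir-/- libraries, with 95% counting intervals as bars and open triangles at the upper limit where no UMI was seen. In both libraries Cxcr3 stands highest in EM-like CD4+ T cells (234 and 206 CPM), Cxcr6 in γδ T cells (987 and 863) and Cxcl16 in R1 macrophages (447.5 and 576).

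Infiltrating R2 macrophages held far less Cxcl16 than R1 cells in WT. The M2-like R2 cluster held 14.8 CPM (65 UMIs, 6.14% of cells) in WT and 99.7 CPM (167 UMIs, 39.3% of cells) in Vsir-/-, a log2 ratio of 2.75 (2.33 to 3.19). After thinning the shares of cells were 0.489% and 7.55%. Other R2 cells held 13.3 CPM in WT and 40.1 CPM in Vsir-/-, a log2 ratio of 1.60 (0.70 to 2.54). The R1 log2 ratio was 0.36 (0.18 to 0.55). The summed level was thus higher in Vsir-/- beyond counting error in all 3 macrophage clusters, by the most in M2-like R2 among these. The R1 difference was the least firm, at 0.41 (−0.06 to 0.87) after thinning and at 0.05 when log levels were averaged over cells. Higher Cxcl16 in Vsir-/- was not particular to macrophages. The B cell cluster held 0.861 CPM in WT and 93.4 CPM in Vsir-/-, a log2 ratio of 6.76 (5.13 to 9.09). A B cell marker was seen in 100% of its WT and 51.1% of its Vsir-/- cells. The neutrophil ratio was 0.54 (−0.70 to 1.68).
The make-up of the M2-like cluster moved too. Its summed resident macrophage markers were 1130 CPM in WT and 3853 CPM in Vsir-/-, and M2 markers, among them Arg1 and Mrc1, were 14.1 and 241 CPM, so the name M2-like had little support in the WT cells. Cells were therefore divided by C1q transcripts, which encode a complement component that resident macrophages make, a division chosen after the values were seen. Among cells without C1q, Cxcl16 levels were 11.5 and 47.9 CPM, a log2 ratio of 2.06. Among the 25 WT and 67 Vsir-/- cells with C1q it was 61.9 and 177 CPM. Cxcl16 was thus higher in cells with C1q within both libraries, and higher in Vsir-/- within both classes.

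Cxcl9 came from very few cells. WT cells held 48 Cxcl9 UMIs in 18 cells, of which 1 cell held 58.3%, and Vsir-/- cells held 683 UMIs in 58 cells, with 4 cells holding 50% of them. In R1 the level was 44.6 CPM in WT (31 UMIs, 28 of them in 1 cell) and 87.4 CPM in Vsir-/- (140 UMIs in 13 cells), a log2 ratio of 0.97 (0.40 to 1.58). Without the fullest R1 cell of each library these levels were 4.40 and 61.0 CPM, a log2 ratio of 3.79. A single cell thus set most of the WT value.
M2-like R2 cells held 2.96 CPM in WT (13 UMIs in 10 cells) and 112 CPM in Vsir-/- (188 UMIs in 12 cells), a log2 ratio of 5.25 (4.44 to 6.18). The share of cells with Cxcl9 was 2.19% (1.06 to 4.00) in WT and 7.14% (3.75 to 12.1) in Vsir-/-, so the levels differed more than the shares. One Vsir-/- cell held 64 of the 188 UMIs. Other R2 cells held 0 UMIs in WT and 1 in Vsir-/-. These cells are the R2 macrophages without the M2-like name, and Cxcl9 was at the detection limit there.
The highest Vsir-/- level of Cxcl9 was in the cluster labelled pDC, at 199 CPM, but 206 of its 235 UMIs lay in 1 cell, which also held 134 Cxcl10 and 12 Cxcl16 UMIs. WT cells of this cluster held 0 Cxcl9 UMIs. With WT set at the floor of 3 counts, the Vsir-/- level was at least 17.5-fold higher, and that bound rests on the single cell. The cluster held Cd209a, a marker of monocyte-derived and conventional dendritic cells, at 412 and 375 CPM beside Siglech, a plasmacytoid marker, at 200.2 and 205 CPM, so its label covers more than plasmacytoid cells.

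**Figure D2:**
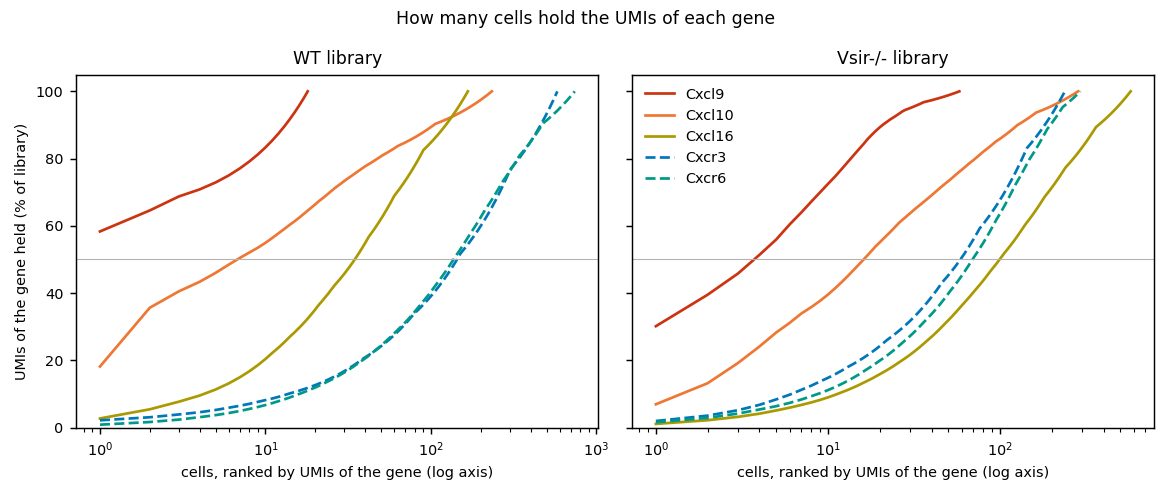
Share of a library's UMIs of each gene (percent, summed) held by the cells with the most of them, against the number of cells taken (log axis), for the WT and Vsir-/- libraries. The Cxcl9 curve starts highest, with 58.3% of WT and 30.2% of Vsir-/- UMIs in 1 cell, and 50% of the Cxcl16 UMIs take 35 WT and 100 Vsir-/- cells.

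Cxcl10 was spread over many clusters. In R1 it was 20.1 CPM in WT (14 UMIs in 4 of 116 cells) and 108 CPM in Vsir-/- (173 UMIs in 44 of 237 cells), a log2 ratio of 2.42 (1.64 to 3.32). Of the 14 WT UMIs 10 lay in 1 cell, and without the fullest R1 cell of each library the levels were 5.89 and 92.0 CPM, a log2 ratio of 3.96. Cells with a UMI made up 3.45% and 18.6% of R1. In M2-like R2 the levels were 76.5 and 116 CPM, a log2 ratio of 0.60 (0.34 to 0.86), but cells with a UMI were 16.7% and 16.1%. The level of the M2-like cluster differed while the share of cells with Cxcl10 was within its counting error, and the mean over cells of the per-cell level gave a log2 ratio of −0.13. Other R2 cells held 11.7 and 32.4 CPM, a log2 ratio of 1.47 (0.49 to 2.49).
Neutrophils carried Cxcl10 as well, at 61.3 CPM in WT and 60.5 CPM in Vsir-/-, a log2 ratio of −0.02 (−0.52 to 0.46). Outside the macrophages it was higher in Vsir-/- in the B cell cluster, by 2.10 (1.26 to 2.92), and in NK cells, by 1.92 (1.11 to 2.70). There 26 of 34 WT UMIs of the B cell cluster and 12 of 22 Vsir-/- UMIs of NK cells lay in 1 cell each. Cxcl10 was also higher in Vsir-/- in γδ T cells, by 2.60 (1.26 to 4.19), and in non-EM-like CD8+ T cells, by 2.17 (1.01 to 3.22). In the pDC cluster it was higher by 2.77 (1.51 to 4.41), with 134 of 152 Vsir-/- UMIs in 1 cell. ILC2, innate lymphoid cells, went the other way, with 29 UMIs in 79 WT cells and 0 in 19 Vsir-/- cells. Proliferating cells were the highest cluster in both libraries, at 259 and 188 CPM, in Vsir-/- not beyond counting error from γδ T cells at 129.8 CPM. In WT, 467 of the 521 UMIs of proliferating cells lay in 2 cells. In Vsir-/-, 733 of 835 lay in the 123 proliferating cells without a T cell receptor or CD3 transcript. EM-like CD4+ T cells held 41.4 and 57.1 CPM, in 3.89% and 12.7% of cells. Effector memory-like (EM-like) T cells are antigen-experienced cells and no classical source of this ligand, and their Cxcl10 lay in few cells, with 32 of 116 WT UMIs in 1 of them. Non-EM-like CD4+ T cells held 1.12 CPM in WT and 72.6 CPM in Vsir-/-.
That last cluster did not hold the same kind of cells in both libraries. At least 1 of 6 T cell receptor and CD3 transcripts was seen in all 895 WT cells but in 116 of 349 Vsir-/- cells, and T cell markers summed to 5498 and 399 CPM. Cxcl10 was at 89.4 CPM in the 116 Vsir-/- cells with such a transcript and at 66.6 CPM in the rest, so its level was not confined to the latter. The 233 Vsir-/- cells without one held Cxcl16 in 48.1% and Ptprc in 6.44%. Proliferating Vsir-/- cells without a T cell transcript, 123 in number, held Cxcl16 in 48.0% and Ptprc in 13.8%. Their Cxcl10 was 244 CPM. Proliferating cells with a T cell transcript held Cxcl10 at 263 CPM in WT and 70.7 CPM in Vsir-/-. The ligands were therefore also seen in Vsir-/- cells with little CD45 transcript, and these 2 clusters cannot be read as T cells across the libraries.

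**Figure D3:**
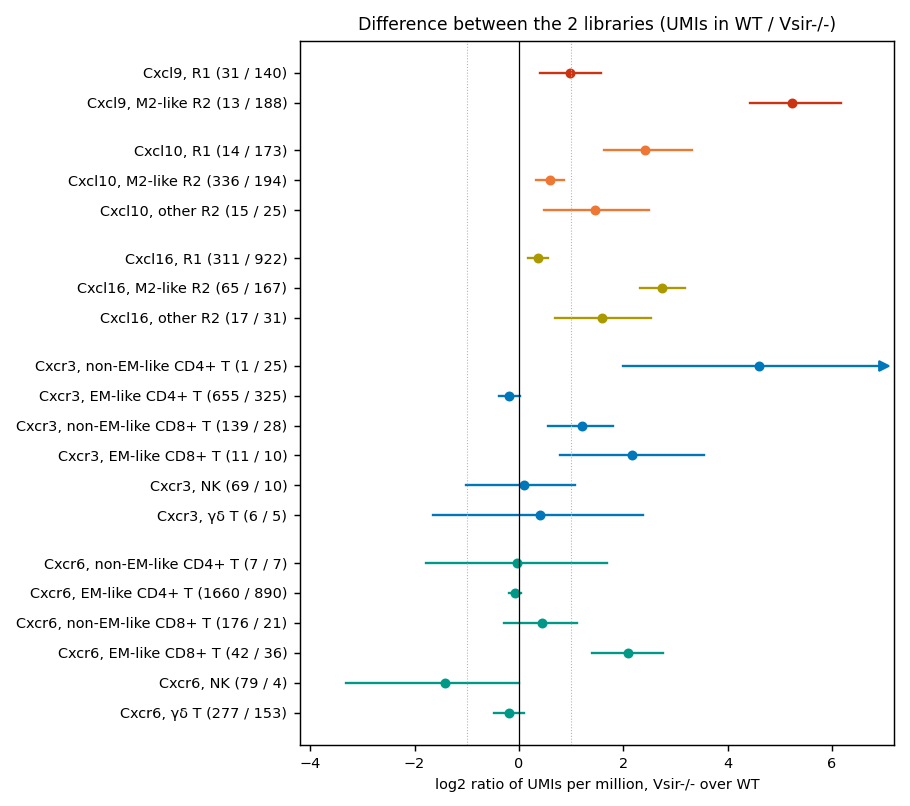
Log2 ratio of Vsir-/- over WT for each gene and cluster, with exact 95% counting intervals as bars, an arrow where a bar leaves the axis, a line at no difference and dotted lines at 2-fold. All 3 ligands lie above the line in R1 and M2-like R2, whereas Cxcr3 and Cxcr6 in EM-like CD4+ T cells lie at −0.18 and −0.07 with intervals that reach it.

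Across the 3 macrophage clusters weighted equally, the ligands were higher in Vsir-/- by differing amounts. The log2 ratio of the mean levels, in which the cluster with the highest level weighs most, was 0.59 (0.41 to 0.76) for Cxcl16, from 159 to 239 CPM. It was 1.24 (0.998 to 1.49) for Cxcl10, from 36.1 to 85.4 CPM. For Cxcl9 it was 2.08 (1.58 to 2.58), from 15.9 to 67.0 CPM, and 4.34 without the fullest cell of each cluster and library.
These ratios stand against a background of many differing genes. Among all genes with 20 or more UMIs, 13.6% were 2-fold or more higher in Vsir-/- R1 cells, 8.11% in M2-like R2 and 6.71% in other R2. Of the 3 ligands, Cxcl10 was past 2-fold in R1, Cxcl9 and Cxcl16 in M2-like R2, and Cxcl10 and Cxcl16 in other R2. With 0.5 UMIs added to each sum, the median gene was at −0.01 in R1, 0.01 in M2-like R2 and −0.06 in other R2.
Tubule and T cell transcripts moved with these clusters as given above. Stress genes, the immediate early and heat shock transcripts that tissue digestion raises, also moved, from 2577 to 4570 CPM in WT macrophage clusters and from 4419 to 6692 CPM in Vsir-/- clusters. Endothelial markers in R1 were 31.7 CPM in WT and 730 CPM in Vsir-/-. Their part in the ligand ratios was not tested.

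Cells that held a ligand transcript were compared with the other cells of the same cluster and library, which keeps genotype and library apart from the comparison. In M2-like R2, 76 WT and 27 Vsir-/- cells held Cxcl10. Interferon-induced guanosine triphosphatases were higher in them: Iigp1 by 2.92 in WT and 2.81 in Vsir-/- on the log2 scale, and Gbp5 by 1.72 and 2.68. Cd274, which encodes the checkpoint ligand PD-L1, was higher by 1.33 and 1.35. Arg1, an arginase of alternatively activated macrophages, went the other way, with 0 UMIs in the WT cells with Cxcl10 and a log2 ratio of −3.86 in Vsir-/-. Irf1, an interferon gamma induced transcription factor, was at 0.19 in WT and 1.52 in Vsir-/-.
Of a list of macrophage state genes, 22 of 24 could be compared. In WT, 3 were 2-fold or more higher and 1 was lower in cells with Cxcl10, with a median of 0.25, where 5.03% of all genes were past 2-fold in either direction. In Vsir-/-, 7 were higher and 4 lower, with a median of 0.10, where 11.1% of all genes were. The 7 were Iigp1, Gbp5, Gbp2, Cd274, Irf1 and the cytokine genes Il1b and Ccl2, and the 4 were Arg1, Ccl5, Mrc1 and Cd72. Without the cell with the most UMIs of the gene, a step chosen after the values were seen, Cd274 was at 0.95 and Iigp1 at 2.42 in Vsir-/-.

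Cxcl16 went with other state genes than Cxcl10 in M2-like cells of the Vsir-/- library. The ligands did not lie in separate cells there. Cxcl16 was detected in 37.0% (19.4 to 57.6) of cells with Cxcl10 and in 39.7% (31.6 to 48.3) of those without. The 66 cells with Cxcl16 held more Ccl5 (log2 ratio 4.75), Arg1 (3.06), Cd72 (2.76), Mrc1 (2.50) and C1qa (1.96) than the 102 cells without. Genes of MHC class II presentation were higher as well, with Ciita at 1.81, H2-Ab1 at 1.65 and Cd74 at 1.62. Ly6c2, a marker of inflammatory monocytes, was at −1.73 and Irf1 at −1.09. Of the 22 genes compared, 9 were past 2-fold higher and 2 lower, with a median of 0.55, where 10.8% of all genes were past 2-fold in either direction. Arg1, Mrc1, Ccl5 and Cd72 were thus higher in cells with Cxcl16 and lower in cells with Cxcl10 of the same cluster and library. In the 28 WT cells with Cxcl16, H2-Ab1 was at 1.70, Cd74 at 1.52, Cd72 at 1.60 (0.89 without its fullest cell) and Arg1 at 1.84, whereas Ccl5 was at −0.04.
Cxcl9 and Cxcl10 met in some single cells. Cxcl10 was detected in 7 of 10 WT and 5 of 12 Vsir-/- M2-like cells with Cxcl9, against 15.5% and 14.1% of the cells without. In Vsir-/- R1 cells it was 6 of 13 against 17.0%, at median depths of 8348 and 5877 UMIs. After thinning these R1 shares were 12.5% of 8 cells and 6.37%. In WT R1, 0 of 4 cells with Cxcl9 held Cxcl10, against 3.57% of those without. In Vsir-/- M2-like cells with Cxcl9, 4 of the 22 macrophage state genes were past 2-fold higher, Iigp1, Gbp2, Gbp5 and Cd274, and 2 lower, Mrc1 and Cd72, with a median of −0.05, where 17.3% of all genes were past 2-fold in either direction. Only 12 cells stand on the one side of this comparison.

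Cxcr6 was carried by innate-like and effector memory-like lymphocytes. γδ T cells stood highest, at 987 CPM (874 to 1110) in WT and 863 CPM (732 to 1011) in Vsir-/-, with a UMI in 44 of 46 and 27 of 28 cells. EM-like CD4+ T cells followed at 592 CPM (564 to 622) and 564 CPM (528 to 603). A UMI was seen in 70.3% and 78.7% of the latter, and in 41.3% and 40.7% after thinning.
ILC2, innate lymphoid cells of type 2 immunity, held 354 CPM in WT (143 UMIs in 79 cells) and 261 CPM in Vsir-/- (38 UMIs in 19 cells). NKT cells, found in the WT library, held 117 CPM. In WT the steps from γδ T to EM-like CD4+ to ILC2 to NKT cells each exceeded counting error. In Vsir-/-, among clusters of 20 or more cells, EM-like CD8+ T cells came after EM-like CD4+ T cells at 217 CPM. Non-EM-like CD4+ T cells stood near 0, at 1.57 and 1.52 CPM.
In neutrophils Cxcr6 followed T cell transcripts. WT neutrophils, which should lack the gene, held a UMI in 3.82% of cells at a median depth of 3565 UMIs. All 62 of these UMIs lay in the 141 neutrophils that also held a T cell transcript, and 0 lay in the other 383. Vsir-/- neutrophils held 1 UMI. In R1 cells Cxcr6 was 25.9 CPM in WT, with 12 of 18 UMIs in 1 cell, and 0 in Vsir-/-, with an upper bound of 2.30 CPM.

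Cxcr3 stood highest in EM-like CD4+ T cells in both libraries. These held 234 CPM (216 to 252) in WT and 206 CPM (184 to 229.7) in Vsir-/-, with a UMI in 60.3% and 57.0% of cells. WT neutrophils held a Cxcr3 UMI in 3.24% of cells, with 33 of the 35 UMIs in the 141 neutrophils that also held a T cell transcript. In WT, proliferating cells (94.5 CPM) and NKT cells (88.9 CPM) came next and did not differ from each other beyond counting error. In Vsir-/-, non-EM-like CD8+ T cells (63.3 CPM) and EM-like CD8+ T cells (60.2 CPM) came next, also without a difference beyond it. NK cells held 18.4 and 19.7 CPM and γδ T cells 21.4 and 28.2 CPM, so γδ T cells were high in Cxcr6 and low in Cxcr3. The cluster labelled NKT also held B cell markers at 2473 CPM in WT, beside NK markers at 1574 CPM.

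The receptors of EM-like CD4+ T cells were near level between genotypes. The log2 ratio was −0.18 (−0.38 to 0.01) for Cxcr3 and −0.07 (−0.19 to 0.05) for Cxcr6, with T cell markers at 5060 and 5129 CPM. The γδ T cell ratio of Cxcr6 was −0.19 (−0.49 to 0.10). Among all genes, 15.8% were past 2-fold in either direction in EM-like CD4+ T cells, and neither receptor was among them. The cluster name did not cover all its cells: in WT, 92 cells held Cd4 without Cd8 transcripts and 93 the reverse. Cxcr3 was 166 CPM in the former and 217 CPM in the latter, and Cxcr6 439 and 485 CPM. In Vsir-/-, with 76 and 40 such cells, Cxcr3 was 142 and 203 CPM and Cxcr6 440 and 397 CPM. The largest class, 294 WT and 125 Vsir-/- cells, held neither transcript. In it Cxcr3 was 283 and 255 CPM and Cxcr6 727 and 713 CPM, above the levels of cells with Cd4 alone or Cd8 alone. Both receptors were therefore high in cells with Cd4 alone, with Cd8 alone and with neither.

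CD8+ T cell clusters showed higher Cxcr3 in Vsir-/-. Non-EM-like CD8+ T cells held 27.5 CPM in WT (139 UMIs, 13.8% of cells) and 63.3 CPM in Vsir-/- (28 UMIs, 22.0% of cells), a log2 ratio of 1.21 (0.56 to 1.80), where 20.8% of all genes were past 2-fold in either direction. EM-like CD8+ T cells held 13.4 CPM (11 UMIs) and 60.2 CPM (10 UMIs), a ratio of 2.17 (0.78 to 3.55), where 16% of all genes were. The Vsir-/- clusters were small, with 50 and 28 cells, and 9 of the 28 and 4 of the 10 Vsir-/- Cxcr3 UMIs lay in 1 cell each. The EM-like CD8+ cluster also differed in make-up. Its NK markers were 1014 CPM in WT and 145 CPM in Vsir-/-, and its Cd4 was 7.29 and 90.3 CPM. In its cells with Cd8 and no Cd4 transcripts, Cxcr3 was 15.0 CPM (7 UMIs) in WT and 82.2 CPM (7 UMIs) in Vsir-/-.
EM-like CD8+ T cells held Cxcr6 at 51.0 and 217 CPM, a log2 ratio of 2.09 (1.40 to 2.76). Cells were also divided by Cd4 and Cd8 transcripts, a division chosen after the values were seen. With Cd8 and no Cd4, Cxcr6 was 70.9 CPM in WT (33 UMIs, 102 cells) and 47.0 CPM in Vsir-/- (4 UMIs, 15 cells), a ratio of −0.59. The Vsir-/- interval (12.8 to 120) held the WT interval (48.8 to 99.5), so these levels did not differ beyond counting error. Cells with neither transcript held 27.9 and 125 CPM. The 6 Vsir-/- cells with Cd4 and no Cd8 transcripts held 572 CPM, with 28 of the 36 Vsir-/- UMIs of the cluster. Non-EM-like CD8+ T cells held 34.8 and 47.5 CPM of Cxcr6, a ratio of 0.45 (−0.28 to 1.11), and of −0.23 without the fullest cell of each library.
NK cells held Cxcr6 at 21.0 CPM in WT (79 UMIs) and 7.89 CPM in Vsir-/- (4 UMIs), where 16.9% of all genes were past 2-fold in either direction. Their Cxcr3 ratio was 0.10 (−1.02 to 1.07). In non-EM-like CD4+ T cells Cxcr3 had 1 UMI in WT and 25 in Vsir-/-, a log2 ratio of 4.60 (1.99 to 9.96). This cluster mixed T and other cells, and 58.5% of all genes were past 2-fold. Of the 25 Vsir-/- UMIs, 23 lay in the 116 cells with a T cell transcript, at 18.9 CPM against 0.224 CPM in WT.
Over the T and NK clusters weighted equally, the log2 ratio of the mean levels was 0.28 (0.04 to 0.51) for Cxcr3 and 0.26 (0.10 to 0.42) for Cxcr6. Without the fullest cell of each cluster and library these were 0.09 (−0.14 to 0.33) and 0.12 (−0.04 to 0.28), and with thinning Cxcr3 was at 0.42 (−0.11 to 0.95), so neither was beyond counting error in every setting. The Cxcr6 ratio was −0.11 with EM-like CD8+ T cells held to those with Cd8 alone, and it also turned negative with thinning. Its sign thus depended on the cells of that cluster and on the setting. Proliferating cells held Cxcr3 at 94.5 CPM in WT and 23.2 CPM in Vsir-/-, but at 96.1 and 71.4 CPM in those with a T cell transcript. Their Cxcr6 was 69.6 and 34.6 CPM, and 70.8 and 107 CPM in those with a T cell transcript, so its direction turned with the cells counted.

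Both receptors were often held by the same EM-like CD4+ T cell. Of 489 WT cells, 228 held both, 67 Cxcr3 alone, 116 Cxcr6 alone and 78 neither. Of 244 Vsir-/- cells these numbers were 114, 25, 78 and 27. Cxcr6 was detected in 77.3% of WT cells with Cxcr3 and 59.8% of those without, and in 82.0% and 74.3% in Vsir-/-. After thinning the shares were 52.3% and 38.0% in WT and 54.9% and 36.8% in Vsir-/-. Median UMIs per cell were 5248 with Cxcr3 and 4363 without in WT, and 5784 and 5869 in Vsir-/-. γδ T cells differed in kind, with 40 of 46 WT and 25 of 28 Vsir-/- cells holding Cxcr6 alone.

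**Figure D4:**
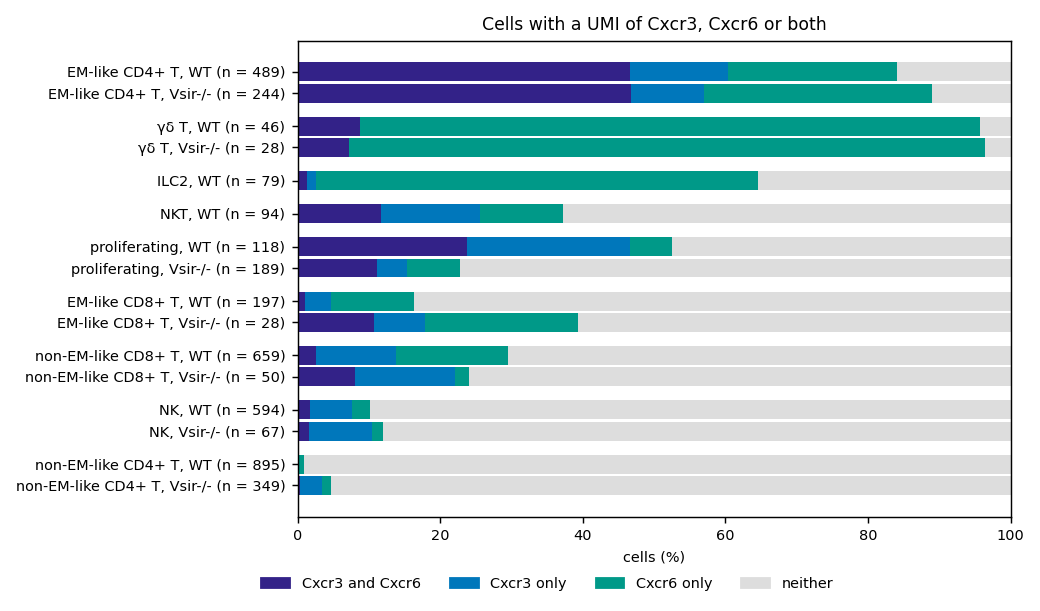
Share of cells (percent) holding both receptors, Cxcr3 alone, Cxcr6 alone or neither, by cluster and library, as detected by at least 1 UMI. Cells with both receptors are the largest class of EM-like CD4+ T cells in both libraries, 228 of 489 and 114 of 244, and γδ T cells hold mostly Cxcr6 alone.

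EM-like CD4+ T cells with Cxcr6 held less S1pr1, Klf2, Foxp3 and Eomes in both libraries. Against cells without it, S1pr1, the receptor for leaving tissue, was lower by a log2 ratio of −1.63 in WT and −1.55 in Vsir-/-. Klf2, the transcription factor that drives it, was at −1.03 and −1.72. Foxp3, of regulatory T cells, was at −3.67 and −2.69 and Eomes, a T-box transcription factor, at −1.42 and −1.68. Without the cell with the most UMIs of the gene, the Vsir-/- values of S1pr1 and Eomes were −0.97 (−1.80 to −0.09) and −1.04 (−2.23 to 0.24). Median depths were alike, at 4966 and 4793 UMIs in WT and 5783 and 5957 in Vsir-/-.
Other genes were higher. Itga1, an integrin of tissue-resident T cells, was at 1.66 in WT and 0.87 in Vsir-/-, and Gzma, a granzyme, at 1.11 and 2.40. Of the 76 Vsir-/- Gzma UMIs in cells with Cxcr6, 46 lay in 1 cell, and without it the value was 1.08 (−0.42 to 3.05). Prf1, perforin, was at 1.69 in WT and 0.02 in Vsir-/-. Cd69 and Itgae, also genes of tissue-resident T cells, did not follow Itga1 in WT. There Cd69 was 530 and 510 CPM in Cxcr6 cells with and without Cxcr3, against 585 and 620 CPM in such cells without Cxcr6. In Vsir-/- these Cd69 levels were 588 and 697 against 375 and 519 CPM. Itgae was 14.2 and 14.4 against 18.1 and 13.3 CPM in WT, and 1 and 1 against 3 and 2 UMIs in Vsir-/-.
Of 33 T cell state genes, 32 could be compared in WT and 28 in Vsir-/-. In WT, 6 were past 2-fold higher and 6 lower with a median of −0.12, where 6.53% of all genes were past it in either direction. In Vsir-/-, 2 were higher and 4 lower with a median of 0.03, where 10.7% of all genes were. The 4 were S1pr1, Klf2, Foxp3 and Eomes, each of them past 2-fold lower in WT too.

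Cxcr3 divided the same cells in another way. Cells with Cxcr3 held less Foxp3 (−2.58 in WT and −1.08 in Vsir-/-), less Il7r, the interleukin-7 receptor (−1.17 and −1.91), less Ctla4, a checkpoint receptor (−1.40 and −2.07), less Gzma (−1.14 and −2.19) and less Ccr6, a receptor of Th17 cells (−1.01 and −3.53). Without the fullest cell of the gene, Vsir-/- Gzma was at −0.29 (−1.34 to 0.78) and Foxp3 at −0.78 (−1.86 to 0.28). In WT, 1 of 32 genes was past 2-fold higher and 8 lower, with a median of −0.32, where 4.03% of all genes were. In Vsir-/-, 3 of 28 were higher and 8 lower, with a median of −0.11, where 7.64% of all genes were. The 3 were Gzmb (2.07), Cd8a (1.41) and Gzmk (1.24). Gzmb was at 0.25 and Cd8a at 0.19 in WT.
Cytokine genes varied over the receptor classes. In Vsir-/-, Il17a was at 669 CPM in cells with Cxcr6 alone (334 UMIs, 24.4% of cells) and at 32.6 CPM in cells with both (24 UMIs, all in 1 cell). Cells with neither held 257 CPM (46 UMIs, 28 of them in 1 cell). The WT value for cells with both rested on 1 cell too, which held 66 of the 67 Il17a UMIs, and WT cells with Cxcr6 alone held 14.4 CPM (9 UMIs, all in 1 cell). Ifng, which encodes interferon gamma, was at 197 CPM in WT cells with both receptors, 127 with Cxcr3 alone, 195 with Cxcr6 alone and 109 with neither. In Vsir-/- the values were 572, 411, 258 and 469 CPM. Ifng was higher in Vsir-/- in each of these classes, with intervals of the levels apart in cells with both and with Cxcr3 alone. With Cxcr6 alone the intervals of the levels overlapped (162 to 233 and 216 to 307), which by itself does not show the levels to be alike. With neither receptor, 58 of the 84 Vsir-/- UMIs lay in 1 cell, without which the level was 151 CPM. In WT 17 of the 41 UMIs of this class lay in 1 cell, without which the level was 65.7 CPM.

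**Figure D5:**
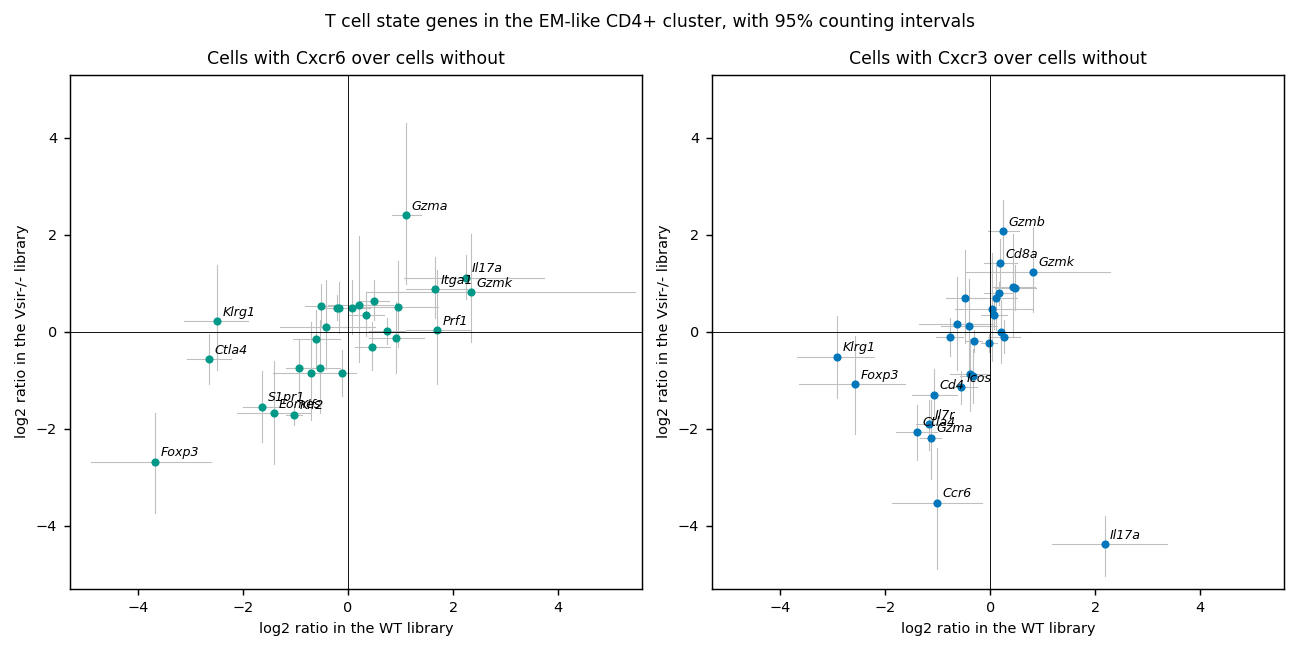
Log2 ratio of T cell state genes in EM-like CD4+ T cells with a receptor over those without it, WT on the horizontal and Vsir-/- on the vertical axis with 95% counting intervals, for Cxcr6 and Cxcr3 and for genes compared in both libraries. Foxp3, S1pr1, Klf2 and Eomes are below −1 in both libraries for Cxcr6, and Il7r, Ctla4, Foxp3 and Ccr6 for Cxcr3.

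Mean levels were joined into ligand-receptor scores from 0 to 1 for each macrophage, dendritic or neutrophil cluster. These faced each CD4+ T, CD8+ T, γδ T, NK and NKT cluster, with 35 pairs of clusters in WT and 30 in Vsir-/-. ILC2, B and proliferating cells were not scored. The score rises with the product of the mean ligand and mean receptor level and measures neither protein nor contact. It falls as the mean over all genes and cells of the library rises. That mean was 0.120 in WT and 0.141 in Vsir-/-, so scores of the libraries are not on the same scale. Past 0.5 were 19 WT and 21 Vsir-/- pairs for Cxcl16-Cxcr6, 14 and 20 for Cxcl10-Cxcr3 and 4 and 9 for Cxcl9-Cxcr3. The WT pairs include those facing NKT cells, of which the Vsir-/- library held 0, so the counts are over unlike sets. Pairs facing NKT cells were among those past 0.5 in WT for each ligand. R1 cells facing EM-like CD4+ T cells scored 0.926 in WT and 0.917 in Vsir-/- for Cxcl16-Cxcr6, and facing γδ T cells 0.937 and 0.928. For Cxcl10-Cxcr3, R1 cells facing EM-like CD4+ T cells scored 0.673 and 0.774, whereas M2-like R2 cells scored 0.803 and 0.759. For Cxcl9-Cxcr3, M2-like R2 cells scored 0.608 and 0.726.

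The wider pathway was read from a list of 28 genes of chemokine scavenging, receptor signalling, shedding and interferon gamma response, of which 27 were in the table. In R1, 1 of 21 compared was past 2-fold higher in Vsir-/- and 1 lower, with a median of −0.30, where 13.6% of all genes were higher and 8.78% lower. These were Ackr3, a scavenging receptor of other chemokines, at 3.12 and Cxcr4 at −1.35. Endothelial markers were also higher in Vsir-/- R1 cells, as given above, and their part in the Ackr3 value was not tested. In M2-like R2, 1 of 24 was higher and 5 were lower, with a median of −0.14, where 8.11% of all genes were higher and 7.61% lower. The former was Rgs1, a brake on chemokine receptor signalling, at 1.62, and the latter were Cxcr4 (−1.03) and the lymphocyte genes Ifng, Stat4, Tbx21 and Eomes, in a cluster where T cell markers were 310 CPM in WT and 40.0 CPM in Vsir-/-. In other R2, 0 of 21 were higher and 1 was lower, where 6.71% of all genes were higher and 9.52% lower.
In lymphocytes the gene that differed most often was Ifng. In EM-like CD4+ T cells it was at 175 CPM in WT and 444 CPM in Vsir-/-, a log2 ratio of 1.35, and with Ifngr2 (1.06) it made up the 2 of 24 genes past 2-fold higher, with 0 lower and a median of −0.17 against 0.00 over all genes, of which 15.8% were past 2-fold in either direction. Ifng was at 4.25 in non-EM-like CD8+ T cells, 2.92 in EM-like CD8+ T cells and 1.34 in NK cells. It was the only gene past 2-fold higher of 24 in non-EM-like CD8+ T cells, where 20.8% of all genes were past it in either direction. In EM-like CD8+ T cells, 2 of 22 were higher and 1 lower beside 16% of all genes, and in NK cells 2 of 22 were higher and 0 lower beside 16.9%. Rgs1 was the other higher gene in both, at 1.10 in EM-like CD8+ T cells, and Cxcr4 the lower one there, at −2.17. In non-EM-like CD4+ T cells 3 of 23 were higher and 10 lower beside 58.5% of all genes, with the mixture of cells given above.

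Genes most like each member were picked by the correlation of log levels over the 16 WT clusters, and the same correlation was then read over the 13 Vsir-/- clusters of 20 or more cells. The clusters of a library share its depth and free RNA. Cxcl16 was most like Slamf9 (r = 0.95 in WT and 0.85 in Vsir-/-), Clec4b1 (0.94 and 0.79) and P2ry6 (0.93 and 0.81). Cxcl9 was most like Ccl12 (0.98 and 0.52), Mmp12 (0.98 and 0.80) and Dab2 (0.95 and 0.69). For Cxcl10 the nearest genes were weaker, D8Ertd738e (0.76 and 0.51), Wdfy2 (0.74 and 0.59) and Ccdc167 (0.74 and 0.43).
Cxcr6 was most like Socs2 (0.89 and 0.74), Odc1 (0.82 and 0.69) and Il12rb1 (0.81 and 0.85), and Cxcr3 was most like Il2rb (0.75 and 0.71), Xcl1 (0.73 and 0.73) and Nkg7 (0.69 and 0.67). Among the members, Cxcl9 and Cxcl16 had r = 0.80 in both libraries, the receptors had 0.68 and 0.67, and Cxcl9 and Cxcl10 had 0.19 and 0.59. The r of the neighbouring genes Cxcl9 and Cxcl10 was thus below that of Cxcl9 and Cxcl16 in both libraries. Of the 48 WT Cxcl9 UMIs, 28 lay in 1 R1 cell, which held 0 Cxcl10 UMIs. All WT correlations of Cxcl9, those with Ccl12, Mmp12 and Dab2 among them, rest largely on that cell and do not show how alike the genes are.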

How the data were processed

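Single-cell RNA-seq (10x 3′ version 3.1) was done on kidneys digested with 0.2 mg/mL liberase for 30 minutes at 37 °C. The authors deposited 1 matrix of raw UMI counts and 1 table of cells with cluster names, UMI totals and mitochondrial percent. Cell Ranger 3.1.0, R 4.0.3, Seurat 3.2.3 and the mm9 build are named in the submitters' processing notes. Per the authors, genes seen in 5 or more cells and cells with at least 200 UMIs and at most 10 percent mitochondrial transcripts were kept. Doublet treatment is not given in the sources used here, and no doublet caller was run.

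Counts were summed per cluster and library with Python 3.11.15, numpy 2.4.6, scipy 1.17.1 and pandas 2.3.3, and figures were drawn with matplotlib 3.10.9. CPM intervals are exact Poisson, shares are Clopper-Pearson and ratios within 1 cluster are conditional binomial, all at 95%. Ratios over several clusters, and member ratios in the comparison of settings, have intervals by a normal approximation (delta method), also at 95%. UMIs are molecules, yet intervals and floors (3 counts) cover counting error only. Shares were repeated with each cell thinned to 1000 UMIs. Share and ratio steps were checked on simulated data. Genes with 20 or more UMIs in the 2 groups compared, 0.5 UMIs added, gave the share past 2-fold. Named genes are the members, members of the fixed lists and the 3 genes most like each member. The members and lists were chosen with earlier results of these data known. Of the T cell state list, 2 genes are not reported here and were left out of its counts. Ligand-receptor scores used the SingleCellSignalR form, the root of the product of the mean ln(1 + UMIs per 10000) of ligand and receptor over that root plus the mean of the library. Alternatives were thinning, averaging log levels over cells, another denominator, cells with a lineage transcript only, UMI minimums, leaving out the fullest cell and a 5 percent mitochondrial limit, with 3 added after the data were seen.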

Additional observations from a re-analysis of the deposited data

How the results depend on the processing

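The Cxcl9 ratio of mean levels over the macrophage clusters (2.08) was 2.80 with cells thinned to 1000 UMIs and 4.34 without the fullest cell of each cluster and library. That of Cxcl10 (1.24) was 0.71 when log levels were averaged over cells, and that of the M2-like R2 cluster alone (0.60) then turned to −0.13. The Cxcr6 ratio of mean levels over the T and NK clusters (0.26) turned to −0.084 with thinning. Holding EM-like CD8+ T cells to those with Cd8 and without Cd4 turned it to −0.11. By the same division the ratio of that cluster turned to −0.59 from 2.09, with 4 Vsir-/- UMIs left. This division, that by C1q and leaving out the fullest cell of a state gene were chosen after seeing the data. The cause of each change was not tested, except that 1 WT cell held most R1 Cxcl9. Of 35 values of a member over its clusters under another setting, 30 moved by less than counting error, 3 moved further and 2 changed sign. Of 107 in 1 cluster, 88 moved by less than counting error, 17 moved further and 2 with an interval that left out 0 changed sign. In all, 13 of the 107 changed sign, 11 of them from a value whose interval held 0. Of 77 state gene ratios named for cells with a member, 16 moved beyond counting error without the fullest cell and 2 changed sign, both from a value whose interval held 0.
The share of genes past 2-fold depends on the UMI minimum. With at least 100 and with at least 1 UMI, R1 gave 8.44% and 22.4%, M2-like R2 3.85% and 23.7%, and other R2 3.74% and 22.6%. EM-like cells gave 7.50% and 36.8% among CD4+ and 6.63% and 34.0% among CD8+ T cells, NK cells 6.95% and 38.4%, and non-EM-like CD8+ T cells 10.7% and 42.0%. The share in non-EM-like CD4+ T cells stayed within 1.5 times. Thinning moved 34 of 37 shares of cells with a UMI, since it lowers shares by construction. No paired analysis was possible because each genotype has 1 library. Leaving out a replicate was not possible for the same reason. With 1 library a genotype, genotype cannot be told apart from library, sort or mouse, and depth limits clusters of few cells most.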
